A study of Mus musculus with 6 samples.

Results

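A set of 10 genes that low oxygen induces in many cell types was followed in mouse lung tumors: Ndrg1, Ankrd37, Kdm3a, Adm, Ddit4, Mxi1, Ak4, Ero1l, Stc2 and Angptl4. They were chosen by gene name among the non-control probes of the arrays. All 10 of 10 names were found, with 13 probes, among 36870 gene names with 56605 probes. All 10 passed the filter on dim probes, as did 20475 genes of the whole array. Of the 10, 9 were well above background in every reading of both groups, and Stc2 passed only through the oil samples, so counts and medians over 10 are given beside those over 9.

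The mice were of strain C57BL/6J and of the genotype Ror1f/f; CAG-CreER; SPC-hEGFRdel746-750. Samples of both groups therefore carried a floxed Ror1 gene, which encodes a receptor tyrosine kinase-like protein, a tamoxifen-activated Cre under the ubiquitous CAG promoter, and a mutant human EGFR transgene under the surfactant protein C promoter of alveolar type 2 cells. Tamoxifen (3 samples) or corn oil (3 samples) was given from 16 to 20 weeks of age, and lung tumors were taken at 20 weeks. No group without Cre or without the floxed gene received tamoxifen, so tamoxifen itself and Cre activity cannot be told apart. Cre under CAG is not limited to tumor cells, and the RNA came from whole tumor tissue. Samples that carry the same number, 1 of tamoxifen and 1 of oil, shared 2 arrays on which the dyes Cy3 and Cy5 were exchanged. They are called a couple below, and the mean of the couple's 2 arrays is 1 replicate. The labels do not say whether numbered samples are separate or pooled animals, so p-values measure only the spread between these samples, which may be technical.

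Oxygen is read in cells by prolyl hydroxylases that mark the HIF α subunits for destruction. When oxygen falls, HIF-1α and HIF-2α stay, pair with ARNT and bind short DNA elements with the core ACGTG or GCGTG, and the genes nearby are transcribed. In growing tumors this programme is known for shifting cells to glycolysis, restraining growth signals, adapting protein folding and recruiting vessels. Several of its genes also answer to other signals: Ddit4 to glucocorticoids and to ATF4, the transcription factor of amino acid and endoplasmic reticulum stress, Stc2 and Ero1l to endoplasmic reticulum stress, and Angptl4 to PPAR receptors of fatty acids.

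All 6 arrays lay on 1 slide and were scanned once, and 51.8% to 58.8% of probes were well above background. Ratios from exchanged dyes correlated at r = 0.76, 0.77 and 0.79 in couples 1, 2 and 3, taken across genes, which are no independent replicates. All 10 alveolar type 2 genes and all 6 epithelial genes of the lists used were well above background in every reading. So were 18506 of the 20475 genes tested, and the markers are therefore no check of the labelled tissue. The targeted gene Ror1 had log2 ratios of tamoxifen over oil of 0.58, 0.44 and 0.18, above 0 in the samples labelled tamoxifen (mean 0.40 ± 0.21, SD, n = 3 couples; limma, adjusted p = 0.69). The floxed exon is not named in the sources used here, so this probe checks neither the deletion nor the labels. Tamoxifen below means a sample labelled so. A value called a ratio is a log2 ratio of tamoxifen over oil, and a value called a signal is a normalized log2 intensity, which compares samples within a probe and never probes with each other.

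The data show 1 couple with low values for the whole set and no gene past the test. In couple 1, all 10 genes had a ratio below 0, where 51.4% of all genes tested did. The ratio was below 0 for 5 of the 10 in couple 2 (50.2% of all genes) and for 4 in couple 3 (51.1%). The median of the 10 was -0.55, 0.031 and 0.0099 in couples 1, 2 and 3, beside -0.0077, -9.4e-04 and -0.0046 for all genes. Without Stc2, 9, 4 and 3 of 9 were below 0 in couples 1, 2 and 3, with medians of -0.65, 0.083 and 0.013. Both arrays of couple 1 had all 10 below 0, with medians of -0.53 with tamoxifen in Cy5 and -0.74 with tamoxifen in Cy3. In limma with Benjamini-Hochberg adjustment over 20475 genes, 0 of the 10 passed an adjusted p of 0.05, with values from 0.69 to 0.9985, and over the whole array the share was 0%. When the couple entered as a random replicate block over 6 arrays, 56 genes on the array were called, 0 of them among the 10. Without adjustment, 1435 genes on the array had a p under 0.05, 4.01% lower and 3% higher, and of the 10 Ndrg1 alone was lower and 0 were higher. In bulk tissue, fewer cells of a type and less RNA per cell cannot be told apart. The samples of couple 1 differed in Xist, an RNA of the inactive X chromosome, and in the Y-linked gene Eif2s3y, as described below.

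**Figure D1:**
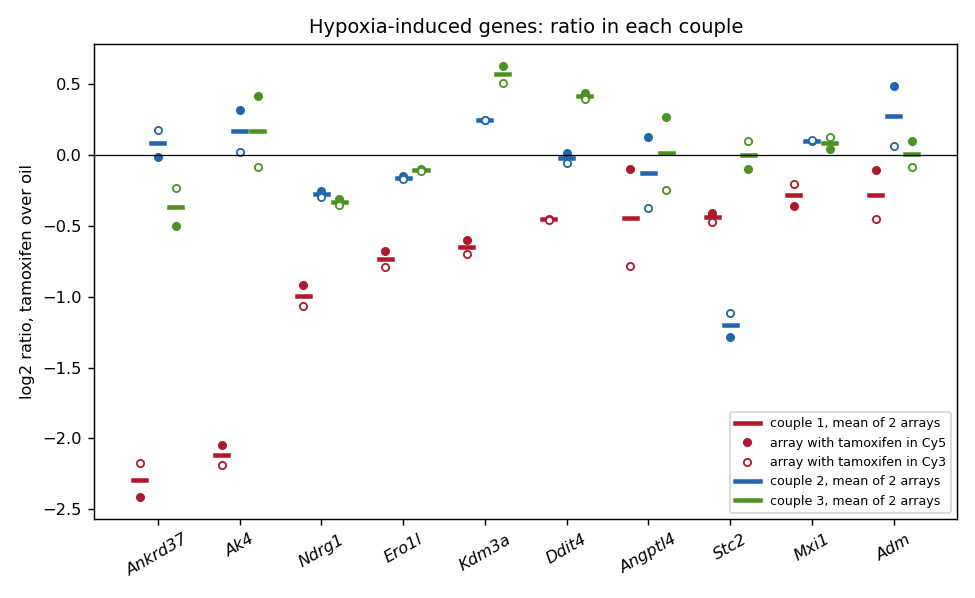
Log2 ratio of tamoxifen over oil (y axis) for each of the 10 genes (x axis). Horizontal bars are couple means, filled points are the arrays with tamoxifen in Cy5 and open points those with tamoxifen in Cy3. Ankrd37 and Ak4 lie at -2.29 and -2.11 in couple 1 and close to 0 in couple 2.

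Sequences before the start sites are shown because the 10 genes are grouped by their known response to HIF, and its core elements can be looked for in these letters. RefSeq promoter windows of build GRCm38.p6 were held for 8 of the 10 genes. ACGTG and GCGTG were searched on both strands in the 250 bases before each start. A palindromic CACGTG holds ACGTG on both strands and so counts 2 times in a list of positions. ACGTG was present in 16.6% and GCGTG in 28.2% of 32851 windows, either of them in 38.6%, and CACGTG in 6.02%. Each of the 8 genes had at least 1 window with either core. Genes with several start sites have several windows, so this count by gene cannot be set beside the shares by window. Mxi1 had none in the window of 1 of its 3 start sites and ACGTG in the other two, and Kdm3a had GCGTG in the window of 1 of its 3. A match is a description of these letters and not a measured binding site.

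Capitals mark the cores, or their reverse complements CACGT and CACGC, in the stretches below, which read 5′ to 3′ on the strand of the gene. The first 3 stretches belong to Ankrd37, the next 2 to Ak4 and the last to Kdm3a, the genes with the widest swings between couples. Distances are counted in bases before the start site. Of the 4 start sites of Ak4, the first is used: its 2 cores lie 97 and 59 bases before the second and 106 and 68 before the third, and the window of the fourth holds a CACGTG instead, at 214 and 213.
Ankrd37, chr8:46000075-46000100 (-), core 241 bases before the start: cccagcagtACGTGcctagctcggct
Ankrd37, chr8:45999989-46000017 (-), cores 155 and 152 bases before the start: accttcactgcgCACGCGTGctgcggccg
Ankrd37, chr8:45999851-45999868 (-), core 6 bases before the start: cagtgtttgggtACGTGa
Ak4, chr4:101419203-101419231 (+), core 74 bases before the start: cctggctccggaCACGCcgggaggggaga
Ak4, chr4:101419241-101419269 (+), core 36 bases before the start: gcggcggcggtaGCGTGgagccggctccc
Kdm3a, chr6:71632928-71632956 (-), core 27 bases before the start: ccgggaggctgtGCGTGtcttgtgagaga

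The whole 250-base windows of Ero1l and Ddit4 follow, since these genes, like Ankrd37, held both cores in a single window and their ratios went apart in couple 3. The Ero1l window has a GC content of 80.8%, with GCGTG 128 and 88 bases and ACGTG 63 bases before the start. The Ddit4 window has a GC content of 70%, with ACGTG 187 bases and GCGTG 115 bases before the start.
Ero1l, chr14:45318573-45318822 (-): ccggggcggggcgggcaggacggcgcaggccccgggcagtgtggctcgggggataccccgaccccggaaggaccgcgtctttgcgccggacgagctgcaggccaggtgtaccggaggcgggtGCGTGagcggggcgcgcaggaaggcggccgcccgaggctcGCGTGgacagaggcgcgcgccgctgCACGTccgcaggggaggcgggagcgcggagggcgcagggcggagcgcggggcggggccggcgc
Ddit4, chr10:59951771-59952020 (-): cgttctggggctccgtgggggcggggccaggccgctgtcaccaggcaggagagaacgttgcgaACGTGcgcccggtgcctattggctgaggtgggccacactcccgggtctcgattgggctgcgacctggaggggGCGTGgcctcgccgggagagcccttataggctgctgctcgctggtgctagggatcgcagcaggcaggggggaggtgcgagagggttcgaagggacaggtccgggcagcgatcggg

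Ankrd37 and Ak4 had the lowest values of the set, both in couple 1. Ankrd37 encodes a small protein of ankyrin repeats, and its probe lies at chr8:47082404-47082463 (mm9, - strand). Its signal was 10.75, 9.80 and 10.04 in oil samples 1, 2 and 3 and 8.45, 9.88 and 9.67 in tamoxifen samples 1, 2 and 3. Tamoxifen sample 1 stood below the other five, which lay between 9.67 and 10.75, and the groups overlapped. The ratio was -2.29 in couple 1, 4.90-fold lower, against 0.083 in couple 2 and -0.37 in couple 3. Its 2 arrays in couple 1 read -2.42 and -2.17. The mean was -0.86 ± 1.26 (SD, n = 3 couples; 95% interval -2.12 to 0.40; limma, adjusted p = 0.72), and without couple 1 it was -0.14.

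Ak4 encodes a mitochondrial adenylate kinase, an enzyme that exchanges phosphate between nucleotides, and its probe lies at chr4:101139464-101139523 (mm9, + strand). The signal was 9.09, 8.34 and 6.97 in oil samples 1, 2 and 3 and 6.98, 8.51 and 7.13 in tamoxifen samples 1, 2 and 3. Oil 1, oil 2 and tamoxifen 2 were thus at 8.34 or above and the other three at 7.13 or below, a split that runs across both groups. The ratio was -2.11 in couple 1, 4.33-fold lower, and 0.17 in both other couples. The arrays with tamoxifen in Cy5 and in Cy3 read -2.04 and -2.19 in couple 1 and 0.32 and 0.021 in couple 2. In couple 3 they read 0.42 and -0.082, on different sides of 0. The mean was -0.59 ± 1.32 (SD, n = 3 couples; 95% interval -1.91 to 0.72; limma, adjusted p = 0.80), and without couple 1 it was 0.17. Another Ak4 probe cleared the background in 0 of 6 readings of tamoxifen and 1 of 6 of oil and is not described; with both probes averaged the mean was -0.38.

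Among the genes whose 6 array ratios lay nearest to those of Ak4 were Xist, at a Euclidean distance of 0.19, and Samd5 at 0.78, where the median over all genes was 3.07. Xist is the noncoding RNA of the inactive X chromosome. Xist signal was 8.74, 8.99 and 5.98 in oil samples 1, 2 and 3 and 6.62, 9.09 and 6.08 in tamoxifen samples 1, 2 and 3, so it was high in the same 3 samples as Ak4. The Y-linked gene Eif2s3y went the other way, with 6.01, 6.06 and 10.07 in oil and 9.73, 6.20 and 10.70 in tamoxifen. Of the other Y-linked genes, Uty had ratios of 1.20, -0.077 and 0.79 in couples 1, 2 and 3, Ddx3y of 1.10, 0.0027 and 0.33, and Kdm5d of -0.077, 0.026 and -0.12. Couple 1 was the couple whose 2 samples differed in both genes, with ratios of -2.13 for Xist and 3.71 for Eif2s3y. The part of this difference in the couple 1 ratios of the 10 genes was not tested. The labels give no sex, and within couple 1 this difference cannot be told apart from that between tamoxifen and oil. For Ankrd37 the nearest genes were Spp1, which encodes osteopontin, at 0.74, Xist at 0.94 and Cyp2c40 at 1.02, where the median was 3.33.

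**Figure D2:**
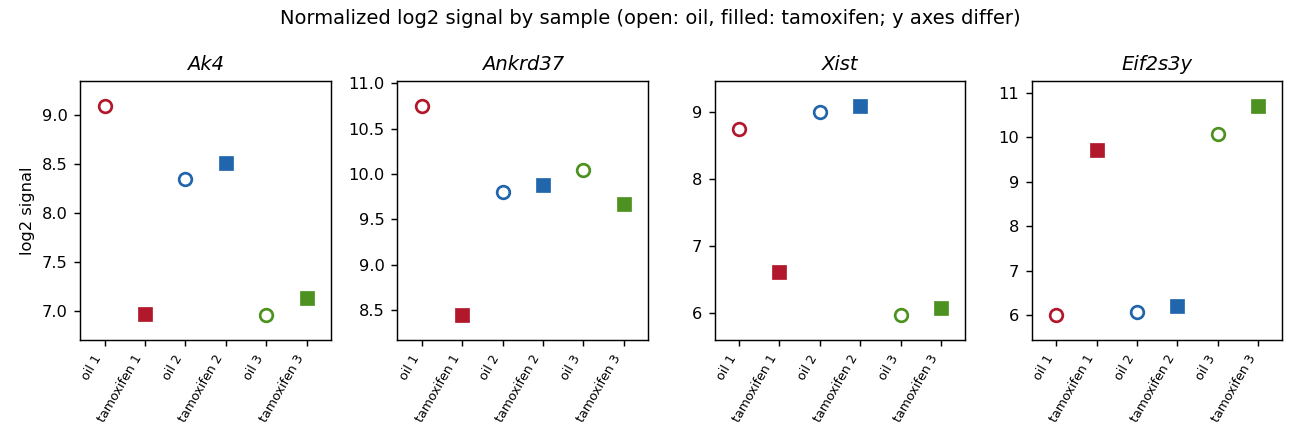
Normalized log2 signal (y axis, which differs between panels) in each of the 6 samples (x axis), with oil samples as open and tamoxifen samples as filled points. Ak4 and Xist are high in oil 1, oil 2 and tamoxifen 2, and Eif2s3y is low in those samples.

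Ndrg1 and Ero1l were the genes of the set that were lower on all 6 arrays, as 7.19% of all genes were, and 0 of the 10 were higher on all 6, as 6.05% were. Ndrg1 encodes a cytoplasmic stress-responsive protein known from metastasis suppression, and its probe lies at chr15:66760903-66760962 (mm9, - strand). Its signal was 11.65, 11.10 and 10.96 in oil samples 1, 2 and 3 and 10.65, 10.83 and 10.63 in tamoxifen samples 1, 2 and 3. Every tamoxifen sample was below every oil sample, as for 7.13% of all genes, and Ndrg1 was the single gene of the 10 of which that held. The opposite order, every tamoxifen sample above every oil sample, held for 0 of the 10 and for 5.22% of all genes. The ratio was -0.99, -0.27 and -0.33 in couples 1, 2 and 3, 1.99-fold lower in couple 1. The mean was -0.53 ± 0.40 (SD, n = 3 couples), or 1.45-fold lower, with a 95% interval of -0.97 to -0.094. Its unadjusted p in limma was 0.027 and its adjusted p 0.69. Without couple 1 the mean was -0.30.

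Ero1l encodes the oxidase that makes disulfide bonds in the endoplasmic reticulum, and its probe lies at chr14:45902895-45902954 (mm9, - strand). Signals were 11.49, 11.30 and 10.99 in oil samples 1, 2 and 3 and 10.75, 11.14 and 10.89 in tamoxifen samples 1, 2 and 3. The groups overlapped, since oil 3 was below tamoxifen 2. Ratios were -0.74, -0.16 and -0.10 in couples 1, 2 and 3, and averaged -0.33 ± 0.35 (SD, n = 3 couples; 95% interval -0.73 to 0.063; limma, adjusted p = 0.69), and without couple 1 the mean was -0.13. Over the 6 arrays, Ero1l and Ndrg1 were at a distance of 0.51 from each other.

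Regulators of chromatin, growth and transcription showed no common direction across couples. Kdm3a, an oxygen-dependent histone H3K9 demethylase with its probe at chr6:71539112-71539171 (mm9, - strand), had signals of 11.40, 10.59 and 10.68 in oil samples 1, 2 and 3. In tamoxifen samples 1, 2 and 3 the signal was 10.74, 10.84 and 11.25. Its ratios ran from -0.65 in couple 1 through 0.25 in couple 2 to 0.57 in couple 3, and each was on the same side of 0 on both arrays. The mean was 0.056 ± 0.63 (SD, n = 3 couples; 95% interval -0.60 to 0.71; limma, adjusted p = 0.97). A dimmer Kdm3a probe at chr6:71553188-71553247 had the same signs in each couple, at -0.31, 0.097 and 0.27.

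Ddit4, also known as Redd1, restrains the growth kinase complex mTORC1, and its probe lies at chr10:59412486-59412545 (mm9, - strand). Its signal was 12.62, 12.37 and 12.34 in oil samples 1, 2 and 3 and 12.16, 12.35 and 12.76 in tamoxifen samples 1, 2 and 3. Tamoxifen sample 1 was the lowest of the 6 and tamoxifen sample 3 the highest. Ratios were -0.45, -0.021 and 0.42, and the mean was -0.019 ± 0.43 (SD, n = 3 couples; 95% interval -0.49 to 0.45; limma, adjusted p = 0.99). Ddit4 and Kdm3a lay at a distance of 0.53 over the 6 arrays.

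Mxi1 encodes a partner of MAX that opposes MYC, and its probe lies at chr19:53447579-53447638 (mm9, + strand). It had signals of 10.83, 10.78 and 10.59 in oil samples 1, 2 and 3 and 10.54, 10.88 and 10.68 in tamoxifen samples 1, 2 and 3. The 6 samples lay within a narrow band and the groups overlapped. Ratios were -0.28, 0.10 and 0.087 in couples 1, 2 and 3, and averaged -0.032 ± 0.22 (SD, n = 3 couples; 95% interval -0.32 to 0.26; limma, adjusted p = 0.96). A second, dim Mxi1 probe cleared the background in 3 of 6 readings of tamoxifen and 5 of 6 of oil, with a ratio of -0.12 in couple 1 and 0.082 in couple 3.

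**Figure D3:**
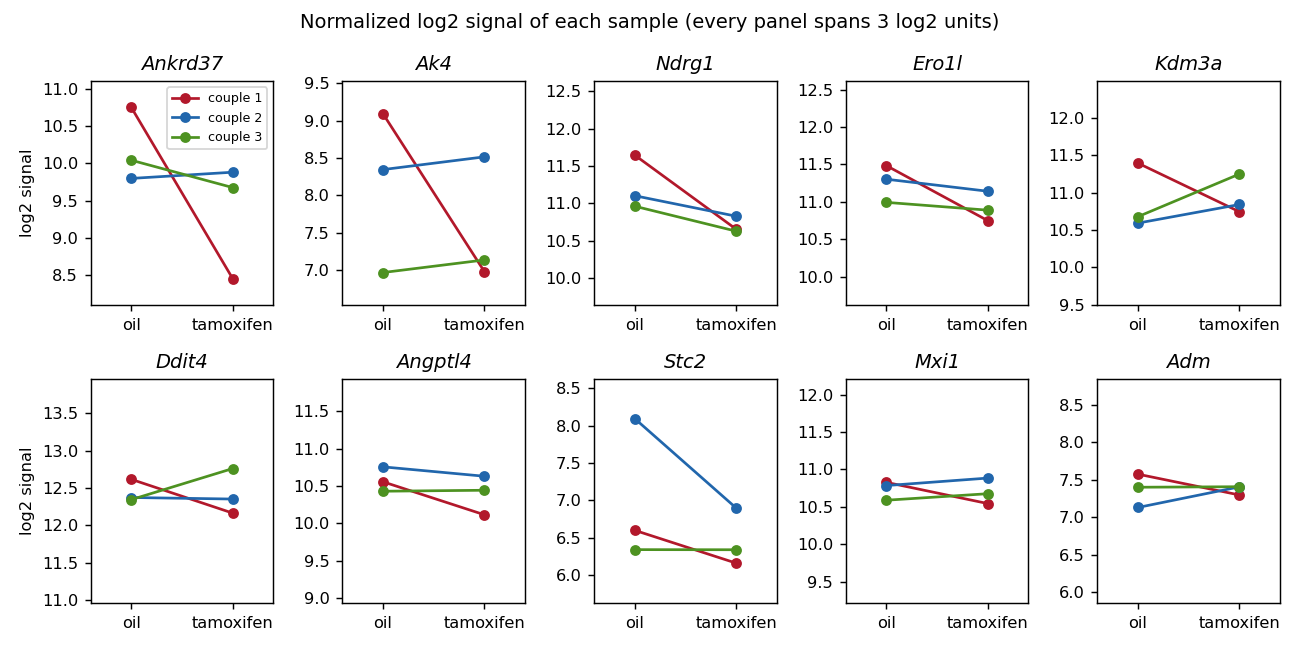
Normalized log2 signal (y axis, spanning 3 log2 units in every panel) of the oil and tamoxifen sample of each couple, joined by a line, for the 10 genes. All 10 lines of couple 1 slope down from oil to tamoxifen, and Ndrg1 is the gene whose groups do not overlap.

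Secreted factors made up the rest of the set. Stc2 encodes stanniocalcin 2, a secreted glycoprotein, and its probe at chr11:31260136-31260195 (mm9, - strand) was dim. It cleared the background in 3 of 6 readings of tamoxifen and 4 of 6 of oil, and so passed the filter only through the group where it was brighter. Its signal was 6.60, 8.10 and 6.34 in oil samples 1, 2 and 3 and 6.16, 6.90 and 6.34 in tamoxifen samples 1, 2 and 3, so that oil 2 stood above the rest. The ratio was -1.20 in couple 2, 2.29-fold lower, -0.44 in couple 1 and -0.0014 in couple 3. Stc2 was thus the gene of the set with its lowest value outside couple 1. The mean was -0.55 ± 0.61 (SD, n = 3 couples; 95% interval -1.17 to 0.083; limma, adjusted p = 0.69), and a ratio of so dim a probe is pulled toward 0 by the offset added to both channels. With the scanner software's own ratio, as in the deposited table, the Stc2 mean was -1.38 (limma, adjusted p = 0.74), and with an offset of 16 it was -0.76 (adjusted p = 0.73). Without couple 2 it was -0.22.

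Adm encodes adrenomedullin, a peptide that widens vessels, and its probe lies at chr7:117773088-117773147 (mm9, + strand). Its signal was 7.58, 7.13 and 7.40 in oil samples 1, 2 and 3 and 7.30, 7.41 and 7.41 in tamoxifen samples 1, 2 and 3. Ratios of -0.28, 0.28 and 0.0069 in couples 1, 2 and 3 left a mean of 0.0014 ± 0.28 (SD, n = 3 couples; 95% interval -0.34 to 0.34; limma, adjusted p = 0.9985). In couple 3 the arrays read 0.10 with tamoxifen in Cy5 and -0.087 with tamoxifen in Cy3.

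Angptl4 encodes a secreted inhibitor of lipoprotein lipase, and its probe lies at chr17:33911880-33911939 (mm9, - strand). Signals were 10.56, 10.76 and 10.43 in oil samples 1, 2 and 3 and 10.12, 10.63 and 10.44 in tamoxifen samples 1, 2 and 3. The dye orientations went apart in every couple: with tamoxifen in Cy5 the arrays read -0.10, 0.12 and 0.27, and with tamoxifen in Cy3 -0.78, -0.38 and -0.24. Averaged over the dyes the ratios were -0.44, -0.13 and 0.013, and their mean was -0.18 ± 0.23 (SD, n = 3 couples; 95% interval -0.49 to 0.12; limma, adjusted p = 0.74), and without couple 1 it was -0.056. The direction of Angptl4 thus differed between the dye orientations in couples 2 and 3.

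Counted over the set, 3 of 10 genes were lower in all 3 couples, where 16.4% of all genes were, and 0 were higher in all 3, where 13.9% were. The 3 were Ndrg1, Ero1l and Stc2, and Stc2 counts there by -0.0014 in couple 3, from arrays at -0.10 and 0.097. Without Stc2 it was 2 of 9. In couple 1, 5 of 10 were at least 1.5-fold lower (Ankrd37, Ak4, Ndrg1, Ero1l and Kdm3a), where 3.87% of all genes were, and 0 were that much higher (2.5%). Ankrd37 and Ak4 were at least 2-fold lower there, against 0.908% of all genes, and 0 were 2-fold higher (0.63%). In couple 2, Stc2 was the 1 gene at least 1.5-fold lower (2.32%) and at least 2-fold lower (0.679%), and 0 were 1.5-fold (1.98%) or 2-fold (0.508%) higher. Stc2 passed the filter only through the oil samples, and of the other 9 genes 0 were 1.5-fold lower in couple 2. In couple 3, 0 of 10 were at least 1.5-fold lower (2.57%) or higher (2.45%), or 2-fold lower (0.791%) or higher (0.542%). The mean ratio was below 0 for 8 of 10, where 51.2% of all genes were. The median of the 10 means was -0.26, beside -0.0037 over all genes, and it was 0.019 without couple 1. Over the 9 genes without Stc2, 7 means were below 0 and the median was -0.18. A couple holds 1 tamoxifen and 1 oil sample, so the difference between couples has no test.

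The other genes that HIF is known to induce, 39 tested of a list of 40, were set beside the 10. Their median ratio was -0.53 in couple 1, 0.039 in couple 2 and -0.082 in couple 3. Below 0 were 35, 18 and 25 of 39, beside 51.4%, 50.2% and 51.1% of all genes. Of the means, 31 were below 0 and 8 above, where 51.2% of all genes were below 0. The median of these 39 means was -0.21, and it was 0.0083 without couple 1. None passed the test in either direction (0 of 39 in limma at an adjusted p of 0.05, and 0% of all genes). At an unadjusted p under 0.05 in limma, 8 were lower (4.01% of all genes) and 1 higher (3%). In couple 1, 19 of 39 were at least 1.5-fold lower (3.87% of all genes) and 0 higher (2.5%). In couple 2, 1 was that much lower (2.32%) and 2 higher (1.98%), and in couple 3, 6 were lower (2.57%) and 1 higher (2.45%). Over the couples, 15 of 39 were lower in all 3 (16.4%) and 2 higher (13.9%). Every tamoxifen sample was below every oil sample for 11 of 39 (7.13%) and above for 1 (5.22%). The list was chosen for its known response to HIF, with earlier results of these data in view, and is no independent evidence of a direction.

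Within that list, Egln3, an oxygen-sensing prolyl hydroxylase that HIF induces in turn, had ratios of -2.73, 0.22 and 0.21 in couples 1, 2 and 3. Bnip3, a receptor of mitophagy, was at -1.40, -0.43 and -1.13 (mean -0.98 ± 0.50, SD, n = 3 couples; limma, adjusted p = 0.69). Slc2a1, the glucose transporter GLUT1, was at -1.03, 0.53 and 0.27, and Ldha, which turns pyruvate into lactate, at -0.79, 0.058 and -0.39. Thus Egln3 and Slc2a1 were below 0 in couple 1 alone, and Bnip3 was below 0 in each couple.

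The glycolytic kinase gene Pgk1 was at -0.63, 0.40 and 0.063 in couples 1, 2 and 3. Pdk1, whose product inhibits pyruvate dehydrogenase in mitochondria, was at -0.53, 0.083 and -0.0078. For Vegfa, a growth factor of vessels, the ratios were -0.50, -0.016 and 0.12. Its other probes had the same signs, at -0.10, -0.28 and -0.15 in couple 2 and 0.31, 0.52 and 0.41 in couple 3. Car9, a carbonic anhydrase of hypoxic cells, was at 0.020 ± 0.020 (SD, n = 3 couples). The HIF subunit genes themselves had mean ratios of -0.16 ± 0.34 for Hif1a and -0.16 ± 0.12 for Epas1, which encodes HIF-2α (limma, adjusted p = 0.82 and 0.72). The 9 genes tested of HIF subunits, prolyl and asparaginyl hydroxylases and Vhl had a median of -0.16. Of their means, 8 were below 0 (51.2% of all genes), and 0 passed the test. Besides Egln3, the widest mean in that group was that of Egln1, the main oxygen-sensing prolyl hydroxylase, at -0.51 ± 0.19.

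**Figure D4:**
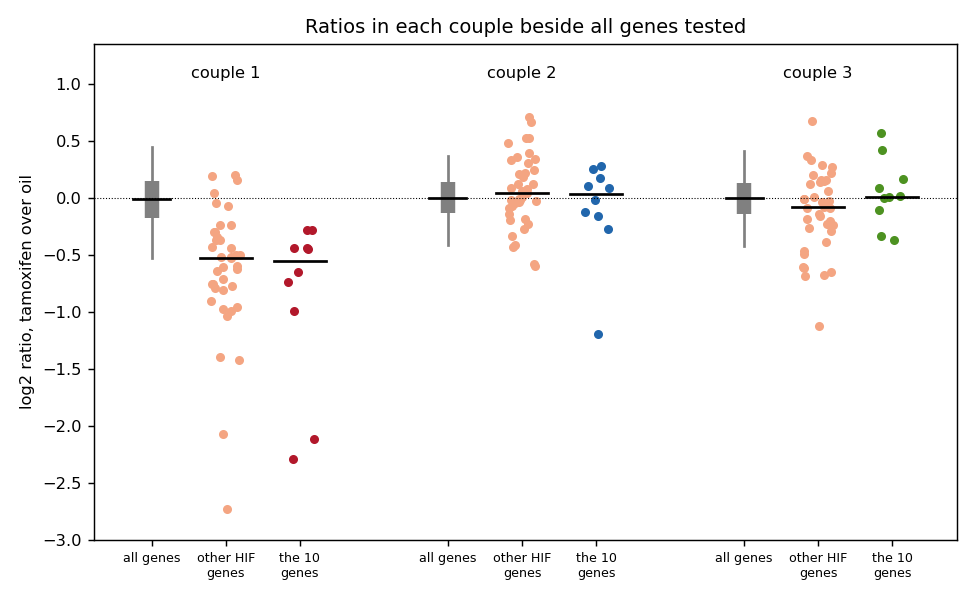
Log2 ratio of tamoxifen over oil (y axis) in couples 1, 2 and 3 for all 20475 genes tested, the 39 other HIF-induced genes and the 10 genes. Grey boxes span the 25th to 75th and grey lines the 5th to 95th percentile of all genes, points are genes and black bars are medians. The medians of the 10 genes were -0.55, 0.031 and 0.0099.

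Markers of alveolar macrophages, cells that a whole tumor can hold, were mostly low in couples 1 and 3 and high in couple 2. All 16 markers were tested, with median ratios of -1.03, 0.35 and -0.29 in couples 1, 2 and 3. Below 0 were 16, 1 and 13 of 16, beside 51.4%, 50.2% and 51.1% of all genes. The log2 of the markers' summed signal was 17.83, 17.19 and 17.86 in oil samples 1, 2 and 3. In tamoxifen samples 1, 2 and 3 it was 16.43, 18.23 and 17.10. Well above background in all 12 readings were 15 of the 16, and the other, Msr1, in 5 of 6 tamoxifen and 6 of 6 oil. Among the 15 was the scavenger receptor gene Marco, which had ratios of -2.05, 2.07 and -3.01. The fatty acid binding protein gene Fabp5 averaged -0.63 ± 0.79 (SD, n = 3 couples). The part of these cells in the values of couple 1 was not tested. Markers of alveolar type 2 cells had medians of -0.11, -0.27 and -0.26 in couples 1, 2 and 3, so their shift was not largest in couple 1. Of these 10 markers, 9 had a mean below 0 (51.2% of all genes), and 0 passed the test. Lower in all 3 couples were 5 of them (16.4% of all genes), and 0 were higher in all 3 (13.9%). The widest means among the type 2 markers were those of the protease gene Napsa, at -0.86 ± 1.07, and of the surfactant gene Sftpb, at -0.62 ± 0.085. Markers of other cell types, such as endothelium, were measured but are not described here, so no cell type is singled out.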

How the data were processed

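Total RNA of 3 tamoxifen and 3 oil samples was measured on 6 two-colour Agilent mouse arrays. The submitters' processing notes name Agilent Feature Extraction 12.0.3.1 as the scanner software. Spot and local background intensity, not normalized, stand in the deposited scanner files, per the file headers. Those deposited files add the software's own log10 ratio (Cy5 against Cy3, dye-normalized) and quality flags for background, saturation and outliers. In the deposited series table the values are log2 of Cy5 against Cy3: the slope on the log10 ratio was 3.32 to 3.33 over 56305 probes. Its column medians were 0.14, -0.14 and -0.064 in couples 1, 2 and 3 where tamoxifen was in Cy5, and 0.13, -0.15 and -0.0055 where it was in Cy3, and no other centring was seen. Probe positions are on mm9, and without an annotation of that build, probes are given by position only.

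In limma 3.58.1 under R 4.3.3, intensities were corrected by normexp with an offset of 50 over 62976 spots and normalized by loess, with 3671 control spots at weight 0 and spots flagged as outliers left out. The probe with the highest mean signal stood for a gene. A gene was tested where both arrays of 2 or more couples were well above background in either group. Arrays were turned to tamoxifen over oil, the 2 arrays of a couple averaged, and the 3 couples tested against 0, two-sided, by lmFit and eBayes with Benjamini-Hochberg adjustment over 20475 genes. Samples of the same number are paired because they shared their arrays. The signal of a sample followed loess and Aquantile normalization. The number of arrays limits the precision (median SE of a gene 0.098). The fit was tested on simulated data. Intervals are limma's, at 95%.

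The 10 genes and the gene lists were chosen with earlier results of these data known. Named were all 10 genes, 10 fixed HIF-related genes, Ror1, Xist and Y-linked genes, for each other list described the 2 genes with the largest absolute mean ratio, and, for the 2 of the 10 genes with the largest mean absolute couple ratio, the 3 nearest genes, of which 1 is not reported here.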

Additional observations from a re-analysis of the deposited data

How the results depend on the processing

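Besides the fit described, 16 settings were tried. The replicate block, a fit of 6 arrays with the couple as random block, called 56 genes over the whole array, where the fit on couple means called 0. With a dye term added to the block, a setting chosen after seeing the data, 9 were called, and with channels taken apart as 3 against 3 samples 1 was called. Leaving out each couple in turn called 0 genes each time. Of the 10 genes, 0 were called in any of these settings, with a lowest adjusted p of 0.22 (limma, Ndrg1 with the replicate block). Leaving out replicates gave the 10 genes' median a range of -0.37 to 0.019 and that of the other HIF-induced genes -0.34 to 0.0083, the highest in both being without couple 1.

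Of 159 values of the 10 genes, 141 kept their direction and 18 did not. Settings that change only the filter or the fit, such as the replicate block or the channels taken apart, leave a gene's mean ratio unchanged. The deposited table repeats the scanner's log ratio. The 141 therefore include values that could not change direction, and the count does not measure robustness. Adm was at -0.0045 with the scanner's log ratio, -0.0024 without background correction, -0.0041 with median centring, -0.0045 in the deposited table and -0.16 on arrays with tamoxifen in Cy3. Ddit4 was at 0.0058 with the scanner's log ratio and the deposited table, 0.034 with median centring and 0.0021 on arrays with tamoxifen in Cy5. On those arrays Angptl4 was at 0.10, and with tamoxifen in Cy3 Mxi1 was at 0.0081. Leaving out couples in turn, Adm ranged from -0.14 to 0.14, Ddit4 from -0.24 to 0.20, Mxi1 from -0.098 to 0.094, Ak4 from -0.97 to 0.17, Kdm3a from -0.20 to 0.41, Ankrd37 from -1.33 to -0.14, Ndrg1 from -0.66 to -0.30, Ero1l from -0.45 to -0.13, Stc2 from -0.82 to -0.22 and Angptl4 from -0.28 to -0.056. The cause was not tested. Dim probes, Stc2 among them, limit the size of a ratio that can be seen.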

Other observations

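Lists of genes that share inducers with some of the 10 were set beside them, without a test between lists. Of 16 tested genes of ATF4 and the unfolded protein response, which also drive Ddit4, Stc2 and Ero1l, 10 had a mean ratio below 0. Over all genes that share was 51.2%. The median of the 16 was -0.10, with -0.15, -0.027 and -0.17 in couples 1, 2 and 3. Herpud1, a gene of endoplasmic reticulum protein degradation, was at -0.68, -0.82 and -1.10 (mean -0.86 ± 0.22, SD, n = 3 couples; limma, adjusted p = 0.67), and Chac1, which degrades glutathione, averaged -0.54 ± 0.35. Both were below 0 in each couple, and neither passed the test.

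Of 11 glucocorticoid-induced genes, 10 had a mean below 0 (51.2% of all genes). The median of the 11 was -0.30, with couple medians of -0.43, -0.015 and -0.23. Mt2, a metal-binding metallothionein, was at -2.50, 0.13 and -1.11 in couples 1, 2 and 3, and the clock repressor Per1 averaged -0.91 ± 0.16 (SD, n = 3 couples; limma, adjusted p = 0.57). Of 12 PPAR-induced genes, 5 had a mean below 0 (51.2% of all genes) and the median was 0.018, beside -0.18 for Angptl4. The fatty acid binding protein gene Fabp4 was at -2.39, 0.94 and -1.37, and the fatty acid transporter gene Cd36 averaged -0.68 ± 0.14. None of these genes passed the test, and 0% of all genes did.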
